A study of Mus musculus with 2 samples.

Results

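The transcripts of 10 AP-1 and immediate early transcription factors were followed through the cell types of the atherosclerotic mouse aorta. The set was fixed by gene symbol: the FOS-family genes Fos, Fosb and Fosl2, the JUN-family genes Jun, Junb and Jund, and Egr1, Atf3, Ier2 and Nr4a1. All 10 were present among the 32285 genes of the count matrices. The study asked what loss of CD45, a tyrosine phosphatase encoded by Ptprc and best known from leukocytes, does in endothelial cells (ECs) during atherosclerosis. It used 2 single-cell RNA libraries of aortic cells enriched on anti-CD31 beads (CD31 is a surface protein of endothelial cells). The WT library came from ApoE-/- mice on a C57BL/6 background, and the EC-iCD45KO library from a strain on the same background with CD45 deleted in ECs by a tamoxifen-inducible system. Every group was therefore ApoE-deficient, which raises plasma cholesterol, and every group ate a Western diet. The labels gave neither the driver of the recombinase, the age of the animals, the number pooled per library nor whether the WT mice received tamoxifen. With 1 library per group no test between the groups was possible, and every interval below is a 95% interval that covers counting error only.

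AP-1 is a family of dimers formed by FOS, JUN and ATF proteins, which bind a short palindromic element in promoters and enhancers. Genes such as Fos, Jun, Egr1, Ier2 and Nr4a1 are called immediate early because growth factors, cytokines, shear stress or tissue injury switch them on within minutes through transcription factors that are already present in the cell. In the vessel wall they are known for coupling flow and inflammatory signals to the expression of proteases, chemokines and growth regulators. Their transcripts also accumulate while tissue is digested with enzymes, and the aortas here were digested with collagenases and Liberase before the cells were bound to the beads.

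The start-site regions of Fos, Jun, Junb and Atf3 are shown because these genes had the cell-type patterns described below and because their windows differ in the elements they hold. Each runs from 250 bases before to 50 bases after the RefSeq start (GRCm38.p6), 5′ to 3′ on the strand of the gene. Capitals mark TGACG on either strand, the core bound by CREB and ATF factors, and TATAAA on the gene's own strand, the core letters of a TATA box.
Fos, chr12:85473640-85473939, plus strand: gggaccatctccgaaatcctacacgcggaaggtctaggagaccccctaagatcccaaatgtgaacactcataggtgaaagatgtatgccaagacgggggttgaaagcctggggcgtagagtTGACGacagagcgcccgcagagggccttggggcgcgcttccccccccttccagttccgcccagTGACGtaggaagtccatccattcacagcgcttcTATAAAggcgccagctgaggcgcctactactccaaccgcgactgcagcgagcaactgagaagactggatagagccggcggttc
Jun, chr4:95052173-95052472, minus strand: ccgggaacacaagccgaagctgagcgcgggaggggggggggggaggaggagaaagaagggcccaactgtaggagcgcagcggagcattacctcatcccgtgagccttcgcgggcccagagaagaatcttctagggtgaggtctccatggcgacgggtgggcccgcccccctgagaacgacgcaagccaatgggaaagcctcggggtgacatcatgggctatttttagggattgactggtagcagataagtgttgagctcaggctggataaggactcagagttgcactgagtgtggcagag
Junb, chr8:84978699-84978998, minus strand: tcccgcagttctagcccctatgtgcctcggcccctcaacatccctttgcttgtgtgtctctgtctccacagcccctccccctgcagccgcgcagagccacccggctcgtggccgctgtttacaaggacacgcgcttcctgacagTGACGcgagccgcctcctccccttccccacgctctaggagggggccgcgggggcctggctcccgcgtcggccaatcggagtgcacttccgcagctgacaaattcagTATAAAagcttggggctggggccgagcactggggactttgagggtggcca
Atf3, chr1:191183284-191183583, minus strand: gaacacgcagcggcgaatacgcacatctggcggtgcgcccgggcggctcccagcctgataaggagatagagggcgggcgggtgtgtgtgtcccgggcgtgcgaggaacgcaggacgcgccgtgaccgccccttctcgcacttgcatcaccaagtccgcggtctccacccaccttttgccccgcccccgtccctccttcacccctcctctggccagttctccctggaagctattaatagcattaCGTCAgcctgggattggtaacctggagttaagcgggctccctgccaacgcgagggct
The Fos window held TGACG 2 times and TATAAA 1 time, the Junb window held each 1 time, the Fos TATAAA began at position -33 and that of Junb at position 0 counted from the RefSeq start as 0, the Atf3 window held TGACG 1 time, and neither was found in the Jun window. RefSeq promoter windows were matched for 8 of the 10 genes, and TGACG was found in 5 of those 8 (Fos, Fosb, Junb, Atf3 and Nr4a1), against 20.8% of all 32851 promoters of the same length. TATAAA on the gene's strand occurred in 8.32% of all promoters and in 2 of the 8. The EGR-type element GCGGGGGCG occurred in 2.91% of all promoters and in 3 of the 8 (Fosb, Fosl2 and Nr4a1). The longer forms TGACGTCA and TGANTCA, the AP-1 element itself, were in none of the 8 windows and in 1.79% and 7.81% of all. The CArG box, the element of the serum response factor SRF, was likewise in 0 of the 8 and in 1.63% of all promoters, and a match or its absence is a description of these letters only.

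In the annotation (GENCODE M21, GRCm38) all 10 are protein-coding genes. Fos lies on chromosome 12 from 85473890 to 85477273 (plus strand), Fosb on chromosome 7 from 19302696 to 19310051 (minus) and Fosl2 on chromosome 5 from 32135801 to 32157842 (plus). Jun is a gene of 1 exon on chromosome 4 from 95049034 to 95052222 (minus) and shares bases with the antisense gene Junos. Chromosome 8 carries Junb from 84974484 to 84978718 (minus), which shares bases with Prdx2 on the other strand, Jund from 70698949 to 70700616 (plus), a gene of 1 exon with the antisense gene Gm11175, and Ier2 from 84661331 to 84662852 (minus), also of 1 exon. Atf3 lies on chromosome 1 from 191170296 to 191218039 (minus), Nr4a1 on chromosome 15 from 101254269 to 101274795 (plus) and Egr1 on chromosome 18 from 34859823 to 34864984 (plus). Whether the counting used strand was not stated, so reads of such overlapping genes may not be separable. Prdx2 was itself measured at 14416 and 18714 UMIs (unique molecular identifiers, each marking a captured RNA molecule) in the WT and EC-iCD45KO libraries, against 135131 and 95679 for Junb. Gm11175 had 24 and 13 UMIs against 71633 and 44986 for Jund.

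The WT library held 39849 cell barcodes and 92058043 UMIs, and the EC-iCD45KO library 30278 barcodes and 88967918 UMIs, with medians of 1548 and 1405 UMIs per barcode. Of these, 35553 and 26064 cells were kept, and 340 barcode sequences occurred in both libraries. Clustering without the 10 genes gave 12 classes with at least 50 cells in each library, named with the suffix -like from marker genes. The EC-like class had 3659 WT and 4066 EC-iCD45KO cells, which was 10.3% and 15.6% of the kept cells in spite of the CD31 beads. The WT library was rich in B-like (5820 against 339) and T/NK-like cells (3727 against 399), and the EC-iCD45KO library in macrophage-like cells (2900 against 8419). The largest macrophage-like cluster was led by Npy and Gpnmb in WT (1163 cells) and by Lyz1 and Apoc1 in EC-iCD45KO (4623 cells, median 906 UMIs). EC-like cells had the 14 endothelial markers at a sum of 4918 CPM in WT and 5575 CPM in EC-iCD45KO, none of them at 0, where CPM is UMIs scaled to a total of 1e6 over the same cells. In these cells B-cell markers (7 genes, none at 0 in either library) summed to 1159 CPM in WT and 92.3 CPM in EC-iCD45KO, T/NK markers (9 genes, 1 at 0 in WT and none in EC-iCD45KO) to 404 and 81.8 CPM, and macrophage markers (10 genes, none at 0) to 3111 and 4131 CPM. Of the deleted gene, Ptprc, EC-like cells of WT had 293 CPM (282 to 305) and those of EC-iCD45KO 115 CPM (108 to 121). It was also lower in fibroblast-like (298 and 127 CPM), SMC-like (159 and 84.6 CPM), macrophage-like (468 and 272 CPM) and T/NK-like cells (1128 and 910 CPM), and the deleted part of the gene was not given, so this value does not check the label. Both libraries carried the Y-linked transcript Ddx3y (82.7 and 72.8 CPM over all kept cells), and Xist had 11 and 6 UMIs.

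Levels differed more between cell types than between the libraries. Summed over the 10 genes, neutrophil-like cells stood highest in each library, with 10687 CPM in WT and 10602 CPM in EC-iCD45KO, and plasma-like cells lowest, with 4269.9 and 3512 CPM. EC-like cells ranked 11 of 12 in WT at 4360.0 CPM and 10 of 12 in EC-iCD45KO at 4011 CPM. In WT, plasma-like and EC-like cells could not be separated beyond counting error.

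**Figure D1:**
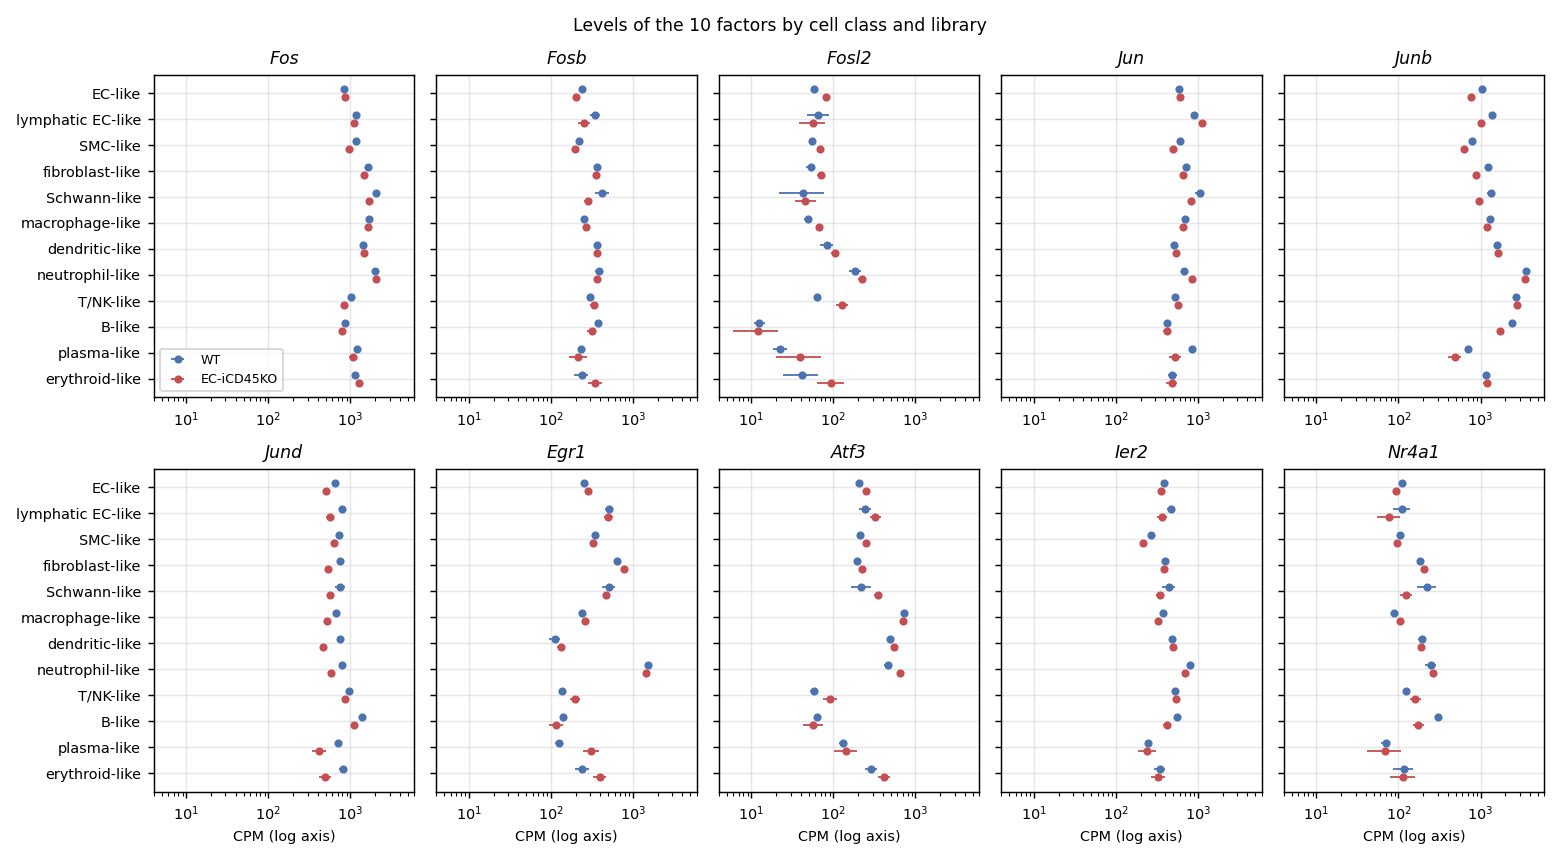
CPM (log axis) of each of the 10 genes in 12 cell classes; points are the WT (blue) and EC-iCD45KO (red) libraries, 1 per group, and bars are exact 95% Poisson intervals. Neutrophil-like cells stand apart for Junb and Egr1, macrophage-like cells for Atf3 and B-like cells at the low end for Fosl2.

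Among the FOS family, Fos, the prototype of the inducible AP-1 subunits, had a narrow range over the cell types. It was at 826 CPM in WT and 862 CPM in EC-iCD45KO EC-like cells, the lowest of 12 classes in WT, and its highest class reached 2.46 times the lowest in WT (Schwann-like, 2030 CPM) and 2.62 times in EC-iCD45KO (neutrophil-like, 2072 CPM). Fosb, whose protein pairs with JUN proteins as FOS does, ranged from 221 CPM in SMC-like (smooth muscle) cells to 418 CPM in Schwann-like cells in WT, and 10 of its 11 neighbouring pairs in the class order overlapped within counting error. Fosl2, which encodes FRA-2, a subunit that lacks the strong activation domain of FOS, varied most steeply, from 12.5 CPM in B-like to 184 CPM in neutrophil-like cells in WT and from 11.9 to 221 CPM in EC-iCD45KO. EC-like cells, at 58.0 and 81.5 CPM, ranked 5 of 12 for Fosl2 in each library.

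The JUN family divided the cell types differently. Jun, the subunit activated by JNK phosphorylation, was lowest in B-like cells (414 and 420.1 CPM) and high in Schwann-like (1048 and 819 CPM) and lymphatic EC-like cells (892 and 1105 CPM), with blood EC-like cells at 591 and 611 CPM. Junb, which can restrain JUN activity, was highest in neutrophil-like cells (3609 and 3470.2 CPM), followed by T/NK-like cells (2723 and 2780.2 CPM), and lowest in plasma-like cells (705 and 483 CPM). The top of the Junb order was thus the same in the libraries, and EC-like cells ranked 10 of 12 in each. Jund, the subunit that is expressed in resting cells, was highest in B-like cells (1370.4 and 1098 CPM) and T/NK-like cells (967 and 869 CPM). The remaining 10 classes lay between 647 and 808 CPM in WT and between 414 and 623 CPM in EC-iCD45KO.

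Egr1, a zinc-finger factor induced by shear stress and growth factors, was at 1532 and 1436 CPM in neutrophil-like cells and at 633 and 784 CPM in fibroblast-like cells, the next class in each library. Its lowest value was 111 CPM in dendritic-like cells in WT and 116 CPM in B-like cells in EC-iCD45KO, and EC-like cells were at 254 and 284 CPM. Atf3, a stress-induced factor known to limit inflammatory gene expression in macrophages, was highest in macrophage-like cells (717 and 714 CPM) and at or below 91.7 CPM in T/NK-like and B-like cells of either library. Ier2, a small nuclear immediate early protein, was highest in neutrophil-like cells (801 and 704 CPM). Nr4a1, the orphan nuclear receptor NUR77 induced by antigen-receptor signals in lymphocytes, was highest in B-like cells in WT (302 CPM) and in neutrophil-like cells in EC-iCD45KO (266 CPM), and EC-like cells were at 112 and 92.8 CPM.

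Over the 24 class and library points, Junb and Ier2 had the closest levels (Pearson r of log2(CPM + 1) = 0.93), followed by Fosb and Nr4a1 (0.84). Jund and Atf3 had the most opposite pattern (-0.63). The points share 2 libraries and their depth, so these values only describe the pattern. The genes outside the set whose log2(CPM + 1) was most like the mean of the 10, among 6788 candidates with at least 50 CPM in at least 1 point, were Gadd45b (r = 0.90), Rab7 (0.88), Nfkbiz (0.88), Nfkbia (0.87), Gm15345 (0.87), 4933432I03Rik (0.86), Prdx5 (0.86), Ifrd1 (0.86), Nfil3 (0.86) and Il1rap (0.86). Gadd45b is itself an immediate early stress gene, and Nfkbia and Nfkbiz encode inhibitor-type proteins of the NF-kappaB pathway.

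Clusters within a class also differed. Among EC-like clusters, the cluster led by Gpihbp1 and Car4, known from capillary ECs, had the lowest sum in each library, 3067 CPM in WT and 2252 CPM in EC-iCD45KO. The cluster led by Ackr1, Selp and Csf3, of which Ackr1 and Selp are known from venules, was at 4735 and 4299.7 CPM, and the cluster led by Sfrp1, Gja5 and Edn1, of which Gja5 is known from arteries, at 4316 and 4754 CPM. Fos in the Gpihbp1 cluster was at 419 CPM in WT and 236 CPM in EC-iCD45KO, against 889 and 972 CPM in the Ackr1 cluster and 924 and 1103 CPM in the Sfrp1 cluster. The ratio between the libraries also had opposite signs in these clusters: the log2 ratio of Fos was -0.83 (-1.01 to -0.64) in the Gpihbp1 cluster and 0.26 (0.17 to 0.34) in the Sfrp1 cluster, a difference that could not be tested.

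In SMC-like cells the small cluster led by Notch3 and Higd1b, genes known from mural cells of small vessels (126 and 97 cells), had the highest sum, 7472 and 6868 CPM, with Fos at 2465 and 1992 CPM. The deep contractile cluster led by Acta2 and Wnt16 (medians of 7742 and 10536 UMIs per cell) was at 4003 and 3343 CPM. Macrophage-like clusters separated on Egr1: the Gpnmb cluster, marked by a gene of lipid-laden macrophages, was at 81.6 and 94.5 CPM, and the cluster led by Mrc1 and Ccl8, known from resident macrophages, at 457 and 464 CPM. Atf3 differed less between these clusters, at 707 and 649 CPM against 767 and 885 CPM. Among T/NK-like clusters, the sum reached 11070.4 and 9554 CPM in the cluster led by Il17a and Trdc, genes of gamma-delta T cells that make interleukin-17, and was 4941 and 4498 CPM in the cluster led by Lef1 and Cd8a, genes of naive CD8 T cells.

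**Figure D2:**
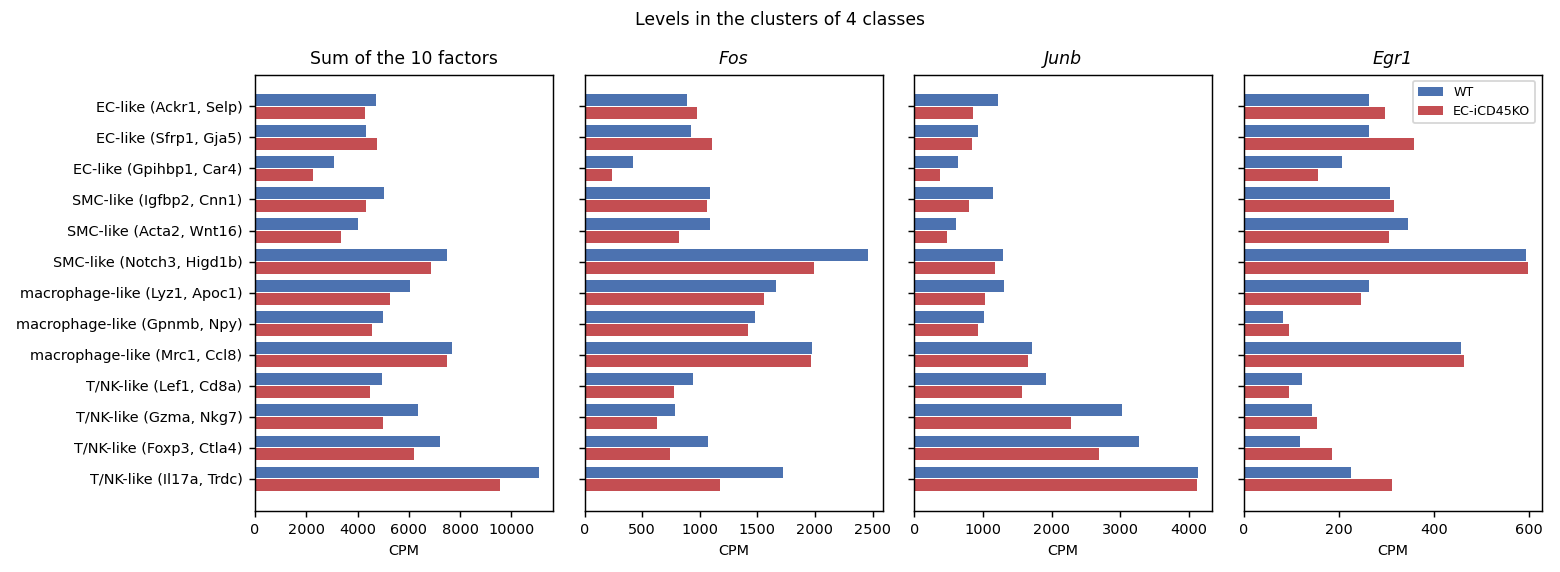
CPM of the 10 genes summed, and of Fos, Junb and Egr1, in the clusters of 4 classes, with 2 leading genes of each cluster in brackets; bars are the WT (blue) and EC-iCD45KO (red) libraries, 1 per group, from 0. In each library, the Il17a and Trdc cluster has the highest sum, the Notch3 cluster the highest Fos and the Gpihbp1 cluster the lowest of both among the clusters drawn.

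Between the libraries the 10 genes differed by less than 1.5-fold in the 4 classes of the vessel wall and its macrophages. In EC-like cells the 10 genes summed to 4360.0 CPM for WT (4314 to 4406) and 4011 CPM for EC-iCD45KO (3972 to 4050.2), which gave a log2 ratio of -0.12 (-0.14 to -0.10). It was -0.21 in SMC-like, -0.15 in fibroblast-like and -0.08 in macrophage-like cells. None of the 10 genes differed by 1.5-fold in EC-like cells, where 4.97% of 10959 genes with at least 5 CPM on average and at least 50 UMIs were higher by 1.5-fold in EC-iCD45KO and 7.36% lower. The count was likewise 0 of 10 in SMC-like cells (5.32% of 10855 genes higher and 7.17% lower), in fibroblast-like cells (6.06% of 11009 higher and 11.4% lower) and in macrophage-like cells (2.98% of 9584 higher and 3.68% lower). At these shares few of 10 genes would lie past the fold in any class, and the count of 0 is near the background. In the 8 other classes 12 of 79 measured values passed the fold, 6 higher and 6 lower, where 12% and 12.2% of the 50040 values of all measured genes in these classes were higher and lower. They were Fosl2 in plasma-like (with an interval that included 0) and T/NK-like cells, Egr1 in plasma-like and erythroid-like cells and Atf3 in T/NK-like and Schwann-like cells on the higher side. On the lower side they were Jund in dendritic-like, plasma-like and erythroid-like cells, Jun in plasma-like cells and Nr4a1 in B-like and Schwann-like cells. Macrophage markers in Schwann-like cells were at 3418 and 8954 CPM, and their part in the Atf3 value there (219 and 348 CPM) was not tested. B markers in these cells were at 1603 and 100 CPM and plasma markers at 4834 and 222 CPM. Their part in the Nr4a1 value there (223 and 124 CPM) was not tested. In T/NK-like cells, whose clusters had different shares in the libraries, the Fosl2 class value of 0.99 stood above those of its 4 clusters (0.10 to 0.76), and the Atf3 class value of 0.68 spanned clusters from -0.71 to 0.99, of which the interval excluded 0 in 1. As means of single-cell CPM, which weight shallow cells as much as deep ones, 4 of the 40 values of a gene in these classes passed the fold: Fosl2 in EC-like (log2 ratio 0.62 in place of 0.49) and fibroblast-like cells (0.66 in place of 0.41), and Junb (-0.62 in place of -0.50) and Jund (-0.69 in place of -0.49) in fibroblast-like cells.

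**Figure D3:**
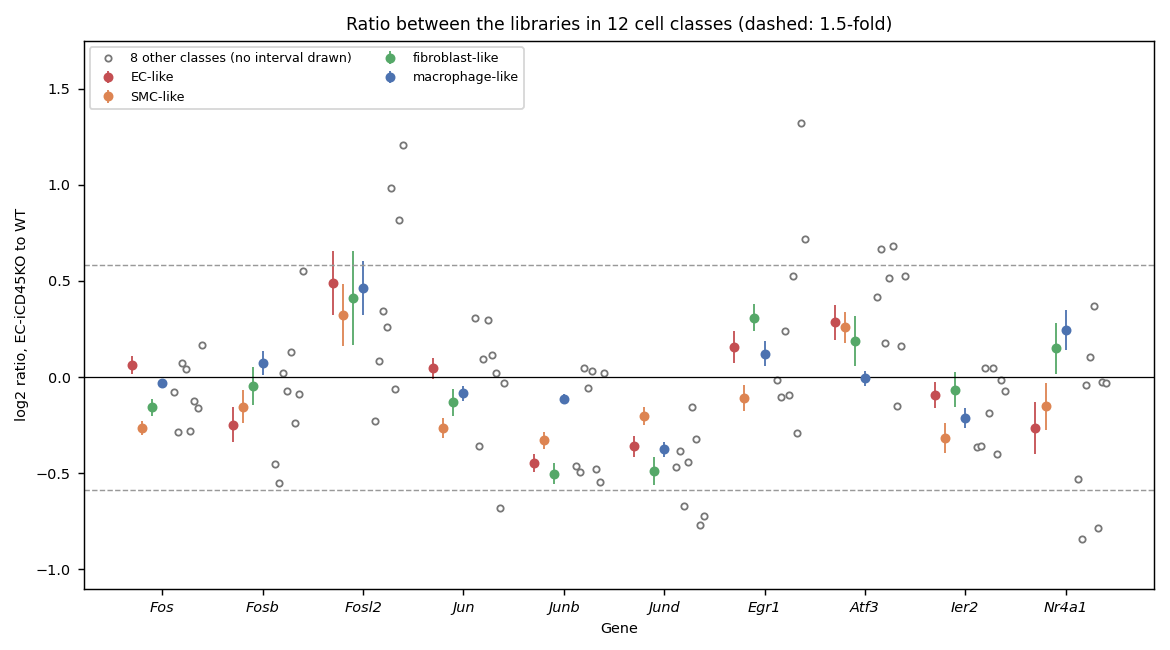
log2 ratio of CPM, EC-iCD45KO to WT, of each gene in EC-like, macrophage-like, fibroblast-like and SMC-like cells (filled, with exact 95% counting intervals) and in 8 other classes (open); dashed lines mark 1.5-fold. All 12 Jund points lie below 0, and the filled points of all 10 genes lie within the dashed lines.

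Jund and Junb were the genes with the lowest ratios in EC-like cells. Jund was at 647 CPM in WT and 505 CPM in EC-iCD45KO, with a log2 ratio of -0.36 (-0.42 to -0.30), and Junb at 1047 and 768 CPM (-0.45, -0.49 to -0.40). Jund was lower in EC-iCD45KO in 12 of 12 classes, from -0.15 in T/NK-like to -0.77 in plasma-like cells, and the interval excluded 0 in all 12. It was lower in all 12 under each of 3 scalings (all UMIs, TMM, and totals without mitochondrial, ribosomal protein and haemoglobin genes). Of the 2115 genes measured in all 12 classes, 5.67% were lower in EC-iCD45KO in all 12, and all classes come from the same 2 libraries. Clusters within a class did not all share the sign: among T/NK-like cells Jund was higher in the Lef1 and Cd8a cluster (709 and 838 CPM, log2 ratio 0.24, 0.007 to 0.47), which held 1654 of 3727 WT but 75 of 399 EC-iCD45KO cells, and lower in the other 3 clusters (-0.35 to -0.56). The B and T/NK markers in EC-like cells were also lower in EC-iCD45KO, as given above. B markers were lower in every class but B-like cells (8167 and 8380 CPM). Among these were SMC-like (627 and 54.6 CPM), fibroblast-like (1262 and 96.2 CPM) and macrophage-like cells (387 and 86.3 CPM). The part of this RNA in the result was not tested. In B-like cells themselves Jund was at 1370.4 and 1098 CPM, a log2 ratio of -0.32 (-0.41 to -0.23).

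Junb was lower in 9 of 12 classes, or 11 of 12 with totals that left out mitochondrial, ribosomal protein and haemoglobin genes, and Ier2 in 10 of 12, where 32.7% of the 2115 genes were lower in at least 9 classes. The classes in which Junb was not lower were T/NK-like, dendritic-like and erythroid-like cells, with log2 ratios of 0.03, 0.05 and 0.02. Within T/NK-like cells, whose clusters had different shares in the libraries, Junb was lower beyond counting error in 3 of 4 clusters (-0.29 to -0.41) and at -0.0062 (-0.10 to 0.08) in the Il17a and Trdc cluster. In neutrophil-like cells, the class with the highest Junb, its log2 ratio was -0.06 (-0.12 to 0.01). Ier2 in EC-like cells was at 381 and 358 CPM, a log2 ratio of -0.09 (-0.16 to -0.02). Its clusters went opposite ways beyond counting error, with -0.20 in the Ackr1 cluster, -0.44 in the Gpihbp1 cluster and 0.42 (0.28 to 0.56) in the Sfrp1 cluster.

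Fosl2 and Atf3 went the other way. Fosl2 was at 58.0 CPM in WT and 81.5 CPM in EC-iCD45KO EC-like cells, a log2 ratio of 0.49 (0.32 to 0.66), and was higher in EC-iCD45KO in 10 of 12 classes, in 7 of them beyond counting error, with B-like and lymphatic EC-like cells the exceptions. Erythroid-like droplets are counted there although their 18 and 30 Fosl2 UMIs lay below the minimum. Atf3 was at 205 and 250.3 CPM in EC-like cells, a log2 ratio of 0.29 (0.20 to 0.38), with 0.32 in the Ackr1, 0.35 in the Sfrp1 and -0.42 in the Gpihbp1 cluster, and 10 of 12 classes had more of it in EC-iCD45KO (11 of 12 with TMM scaling). Among the 2115 genes measured in all 12 classes, which include Atf3 but not Fosl2, 20.9% were higher in at least 10 of 12, so such a count is not rare. Atf3 summed over macrophage-like cells was level within counting error (717 and 714 CPM, log2 ratio -0.0072, -0.04 to 0.03), but its clusters were not. It was lower in the Lyz1 and Apoc1 cluster (641 and 585 CPM, -0.13), which held 811 of 2900 WT and 4623 of 8419 EC-iCD45KO cells, and in the Gpnmb cluster (-0.12), and higher in the Mrc1 and Ccl8 cluster (0.21), each beyond counting error. Macrophage markers in EC-like cells were higher in EC-iCD45KO, as given above, and their part in the Atf3 value was not tested.

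The inducible prototypes were nearer to 0 over all EC-like cells. The log2 ratio was 0.06 (0.02 to 0.11) for Fos, 0.05 (-0.01 to 0.10) for Jun and 0.16 (0.07 to 0.24) for Egr1. These class values joined clusters of opposite sign: in the Sfrp1 cluster Jun was at 0.30 (0.19 to 0.41) and Egr1 at 0.44 (0.28 to 0.60), and in the Gpihbp1 cluster Jun was at -0.26 (-0.40 to -0.12) and Egr1 at -0.40 (-0.64 to -0.15), as for Fos above. Fosb, at 238 and 200.2 CPM (-0.25, -0.34 to -0.16), and Nr4a1 (-0.27, -0.40 to -0.13) were lower over the class, but Nr4a1 was lower in the Ackr1 cluster (-0.43) and higher in the Sfrp1 cluster (0.28, 0.04 to 0.52), which held 884 of 3659 WT and 596 of 4066 EC-iCD45KO cells. Where EC-like cells were instead picked one by one from their own marker UMIs, without clusters, the sign turned for Fos (-0.0872), Jun (-0.0224) and Ier2 (0.0608), and the ratios were smaller for Jund (-0.17), Atf3 (0.0603), Egr1 (0.0584) and Nr4a1 (-0.0696). None of the other alternatives turned a sign in EC-like cells. Cluster-based signs were not shared by all classes: Fos was higher in 4 of 12 and lower in 8, Jun higher in 6 and lower in 6, and Egr1 higher in 7 and lower in 5. Egr1 had its largest ratio in plasma-like cells, at 124 CPM in WT and 310 CPM in EC-iCD45KO (111 cells), a log2 ratio of 1.32 (0.97 to 1.65). Fibroblast markers in these cells went from 509 to 2323 CPM, and their part in the value was not tested. In fibroblast-like cells, where Egr1 was second highest, the values were 633 and 784 CPM (0.31, 0.24 to 0.38).

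In single cells each barcode was thinned to 1000 UMIs, which left out the shallower ones (1119 of 3659 WT and 1409 of 4066 EC-iCD45KO EC-like cells). A Fos UMI was then found in 49.5% (47.6 to 51.5) of WT and 48.8% (46.9 to 50.7) of EC-iCD45KO EC-like cells, a difference of -0.75 percentage points (-3.47 to 1.97), and in 59.9% and 58.4% without thinning. With no doublet removal the difference had the opposite sign, at 3.33 points (0.72 to 5.94), with an interval above 0. Junb was found in 59.1% and 47.8%, and Jund in 44.1% and 35.8% of the thinned cells, with intervals that did not overlap between the libraries. Atf3 and Fosl2 were found more often in EC-iCD45KO, also with intervals apart. The share of all genes with intervals apart was not computed. EC-like cells with no UMI of any of the 10 genes made up 6.02% of these for WT (5.13 to 7.02) and 8.32% for EC-iCD45KO (7.30 to 9.43).

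Erythroid-like droplets, which should hold little transcription of their own, were set beside these shares (median depth 936 and 1286 UMIs against 1387 and 1330.0 in EC-like cells). A Fos UMI was found in 57.1% (48.9 to 65.1) and 71.6% (62.4 to 79.5) of them. In EC-like cells none of the 10 genes was found more often than in erythroid-like droplets beyond counting error in either library, and 2 in WT (Jund and Atf3) and 5 in EC-iCD45KO were found less often. These droplets were not a clean background, since haemoglobin made up 13.64% and 13.25% of their UMIs, and macrophage markers 5215 and 12340.2 CPM. The share of several genes differed widely between types. Atf3 was found in 44.8% and 44.6% of macrophage-like, 16.8% and 20.4% of EC-like but 4.60% and 2.88% of B-like cells, Fosl2 in 18.9% and 19.5% of neutrophil-like but 1.02% and 1.28% of B-like cells, and Egr1 in 64.6% and 64.6% of neutrophil-like but 11.7% and 11.8% of B-like cells. In neutrophil-like cells 6 of the 10 genes in WT and 5 in EC-iCD45KO exceeded the erythroid-like share beyond counting error, Fosl2, Junb, Egr1, Ier2 and Nr4a1 in each. The counts against erythroid-like droplets were not made over all genes, so no background share stands beside them.

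**Figure D4:**
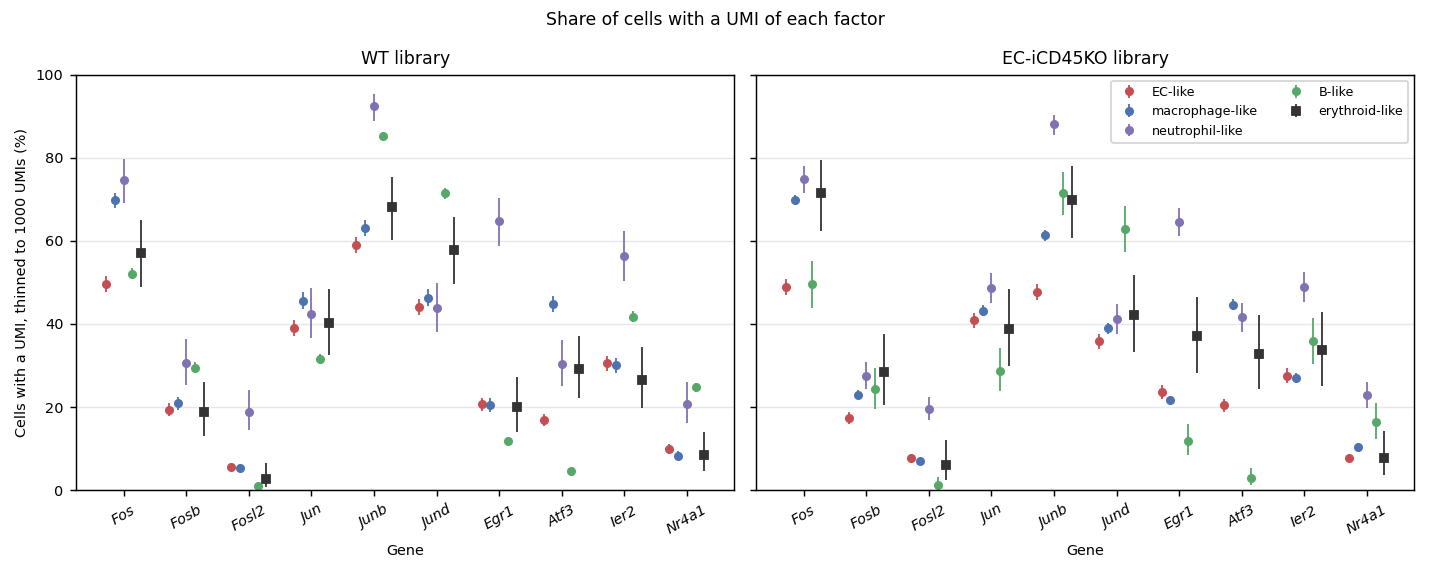
Share of cells (%) with at least 1 UMI of each gene after thinning to 1000 UMIs, in the WT library (left) and the EC-iCD45KO library (right), for 5 classes; bars are exact 95% Clopper-Pearson intervals and squares mark erythroid-like droplets, which also held macrophage RNA. No EC-like interval lies wholly above that of the squares, and neutrophil-like intervals do for Fosl2, Junb, Egr1, Ier2 and Nr4a1 in each library.

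As a limit per droplet, the lowest mean number of Fos UMIs per cell in any cluster was 1.16 in WT and 0.88 in EC-iCD45KO, both in the Gpihbp1 EC-like cluster, and free RNA in those droplets added at most that. All EC-like cells together had 1.80 and 2.14 Fos UMIs per cell, and the Acta2 SMC-like cluster in WT had 9.48. For Atf3 the lowest cluster had 0.044 and 0.074 UMIs per cell, and EC-like cells had 0.45 and 0.62. The EC-like mean was thus 10.3 and 8.44 times the lowest cluster for Atf3, and 1.55 and 2.43 times for Fos. The lowest cluster for Atf3 was T/NK-like in each library. Macrophage markers summed to 594 and 741 CPM in T/NK-like cells, against 3111 and 4131 CPM in EC-like cells. The multiple for Atf3 therefore sets no limit on macrophage RNA in EC-like cells.

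In the 4 main classes, cells with a Fos UMI carried most of the other inducible transcripts more often. Of these classes, EC-like, SMC-like and macrophage-like cells joined clusters with different levels of these genes, as given above. The part of this in the shares was not tested. In thinned EC-like cells of the WT library Junb was found in 68.1% (65.5 to 70.7) of Fos-positive and 50.2% (47.4 to 52.9) of Fos-negative cells, and in EC-iCD45KO in 57.2% and 38.8%. Egr1 was found in 25.7% against 15.7% in WT and 29.7% against 17.7% in EC-iCD45KO. Over EC-like, macrophage-like, fibroblast-like and SMC-like cells of the 2 libraries, Fosb, Jun, Junb, Egr1, Atf3, Ier2 and Nr4a1 were more frequent in Fos-positive cells in 8 of 8 combinations. The intervals were apart in 8 for Jun, 7 for Fosb, Junb, Egr1 and Ier2, 6 for Atf3 and 3 for Nr4a1. Fosl2 was more frequent in only 4 of 8, with differences from -0.83 to 2.23 percentage points, and Jund in 7 of 8, with intervals apart in 3. In T/NK-like, B-like, neutrophil-like and erythroid-like cells this was less uniform: Fosb and Atf3 were more frequent in Fos-positive cells in 8 of 8 combinations, Junb, Jund, Egr1, Ier2 and Nr4a1 in 7, Jun in 6 and Fosl2 in 5. Most of these combinations also lay within counting error. The intervals were apart in 4 for Fosb, 3 for Egr1 and Ier2 and 2 for Jun and Junb. They were apart in 1 for Jund and Nr4a1 and in 0 for Atf3 and Fosl2. The exceptions lay within counting error too, such as Jun in neutrophil-like cells of WT (40.7% against 47.9%) and Egr1 in erythroid-like droplets of EC-iCD45KO (32.5% against 48.5%).

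The wider pathway was described with 6 further lists. In EC-like cells, where 4.97% of all genes were higher and 7.36% lower, 4 of the lists had counts near these shares or at 0. Of 13 other AP-1 and small Maf subunits measured there, none was higher by 1.5-fold and 1 was lower, Batf (20.5 and 11.5 CPM), a subunit known from lymphocytes, and the median log2 ratio was 0.18 against -0.01 for all genes tested. Of 20 other immediate early genes none passed the fold in either direction (median 0.01), among them Klf2, the shear-stress factor (1252 and 1098 CPM), and Klf4 (448 and 429 CPM). Of 16 feedback inhibitors 2 were lower, the phosphatase gene Dusp2 (113 and 59.6 CPM) and Tnfaip3, which encodes the NF-kappaB inhibitor A20 (66.0 and 42.4 CPM), while Dusp1 (497 and 543 CPM) and Zfp36 (217 and 221 CPM) stayed within it. None of 13 upstream kinases and SRF or CREB-type factors passed (median -0.03). In fibroblast-like cells, where 6.06% of all genes were higher and 11.4% lower, 3 of 21 other immediate early genes were higher, Egr2 (12.9 and 36.3 CPM), Ccn1 (138 and 208 CPM) and Ccn2 (256 and 426 CPM), and 1 was lower, Btg2 (289 and 182 CPM). In macrophage-like cells, where 2.98% were higher and 3.68% lower, 2 of 21 were higher, Nr4a2 (85.5 and 131 CPM) and Ccn2 (16.5 and 30.02 CPM), and 2 lower, Egr3 (10.99 and 5.14 CPM) and Klf2 (384 and 214 CPM).

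Genes known as AP-1 targets were counted in the same way. Of 9 measured in EC-like cells, 5 were higher by 1.5-fold and none lower, against 4.97% and 7.36% of all genes, with a median log2 ratio of 0.66. Ccl2, a monocyte chemokine, was at 49.8 CPM in WT and 124 CPM in EC-iCD45KO (log2 ratio 1.32, 1.16 to 1.49). Ccnd1, cyclin D1, was at 100.2 and 190.3 CPM, Hmox1, haem oxygenase 1, at 30.8 and 57.2 CPM, Vegfa at 16.2 and 25.8 CPM and Il6 at 10.8 and 17.0 CPM. Ccl2 was higher past the fold in all 12 classes, among them SMC-like (33.9 and 103 CPM), fibroblast-like (87.5 and 357 CPM) and macrophage-like cells (286 and 465 CPM) and also erythroid-like droplets (65.8 and 195 CPM). In fibroblast-like cells Mmp3, a matrix protease, was at 2417 and 5023 CPM and its inhibitor Timp1 at 685 and 1460.0 CPM. Mmp3 was higher in erythroid-like droplets too (213 and 1122 CPM), where fibroblast markers were at 3154 and 2905 CPM. The source of the Mmp3 RNA there was not tested. Some targets were lower past the fold: Mmp13 in SMC-like cells (153 and 17.6 CPM), Mmp3 in lymphatic EC-like (232 and 41.0 CPM) and neutrophil-like cells (168 and 50.5 CPM), Timp1 in lymphatic EC-like cells (94.3 and 55.9 CPM), and Ccnd1 in dendritic-like (259.7 and 163 CPM) and T/NK-like cells (9.83 and 5.29 CPM, with an interval that included 0). Fibroblast markers in lymphatic EC-like cells were at 3016 and 512 CPM, and in neutrophil-like cells at 466 and 332 CPM, and their part in the Mmp3 and Timp1 values there was not tested. Macrophage markers summed to more in EC-iCD45KO in the same cells, 3111 and 4131 CPM in EC-like, 1642 and 2949 CPM in SMC-like and 3187 and 4164 CPM in fibroblast-like cells. Macrophage-like cells also held Hmox1 (121 and 145 CPM) and Ccnd1 (120.0 and 129.8 CPM). The part of this RNA in the target values was not tested. These genes answer to other factors too, and whether AP-1 has a part in their values was not tested.

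Heat shock genes, which encode chaperones and are also known to respond to tissue handling, were measured beside them. Of 11 in EC-like cells 4 were higher by 1.5-fold and none lower, where 4.97% and 7.36% of all genes were (median log2 ratio 0.47): Hsph1 (44.9 and 85.3 CPM), Hspb1 (803 and 1345 CPM), Bag3 (84.8 and 133 CPM) and Hspa1b (52.2 and 79.4 CPM). Hsph1, Hspb1 and Hspa1b were also higher in SMC-like and fibroblast-like cells, where 3 of 11 passed in each against 5.32% and 6.06% of all genes, and Hspb1 alone in macrophage-like cells (30.7 and 64.1 CPM). In lymphatic EC-like cells none of 11 was higher past the fold and Dnajb1 was lower (118 and 72.7 CPM), as it was in erythroid-like droplets (141 and 56.6 CPM). Of all genes, 578 of 4345 were higher and 514 lower in lymphatic EC-like cells. Counts of all genes higher follow in brackets. In B-like (934 of 9275 genes), dendritic-like (491 of 7813), neutrophil-like (695 of 5654) and plasma-like cells (942 of 6497), 4 of 11 were higher. In T/NK-like (1061 of 9538) and Schwann-like cells (852 of 4623) 2 of 11 were higher. The chaperone genes Hspa1a (135 and 148 CPM) and Dnajb1 (85.8 and 85.1 CPM) did not pass in EC-like cells. The median mitochondrial share of EC-like cells was 1.89% in WT and 2.99% in EC-iCD45KO, and the sum of the 10 factors had a log2 ratio of -0.11 in the cells at or below and -0.16 in the cells above their library's median share. This ratio was -0.29 and -0.07 in SMC-like, -0.21 and -0.11 in fibroblast-like and -0.07 and -0.16 in macrophage-like cells. Split at each library's own median UMIs per cell instead (1387 and 1330.0 in EC-like, 3193 and 1556 in macrophage-like cells, so that cells of other depths and clusters are compared), it was -0.25 in the shallower and -0.0880 in the deeper EC-like cells, and -0.45 and -0.0071 in macrophage-like cells. What part handling has in either group of genes was not tested.

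**Figure D5:**
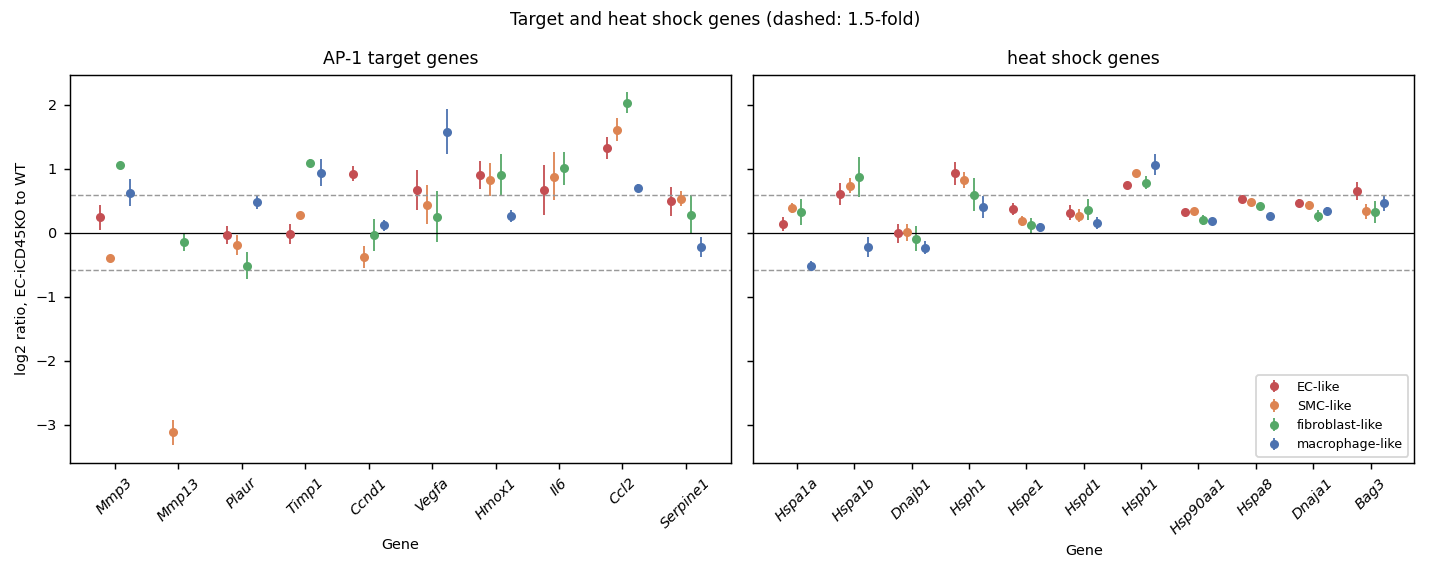
log2 ratio of CPM, EC-iCD45KO to WT, of AP-1 target genes (left) and heat shock genes (right) in 4 classes, with exact 95% counting intervals; dashed lines mark 1.5-fold, and genes below the minimum in a class are not drawn. Ccl2 lies above the upper line in all 4 classes and Hspb1 too.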

How the data were processed

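Single-cell RNA was measured with 10x Genomics chemistry in 1 library per group, after collagenase and Liberase digestion and CD31 bead enrichment, per the labels' protocols. The authors deposited whole-number counts of UMIs per gene and barcode, made with Cell Ranger 7.1.0 on build mm10, per the submitters' processing notes. The cell calling, the counting of introns and strand, and any pooling of animals were not given in the sources used here. Of 32285 gene identifiers, 32158 matched GENCODE M21 (GRCm38, the same assembly as mm10).

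From these counts, barcodes were kept from 300 genes upwards and up to 10% mitochondrial UMIs. Doublets were scored with Scrublet in scanpy 1.11.5, whose own threshold marked 3 WT and 0 EC-iCD45KO cells and so had not worked, and in each library the highest-scoring 10% of cells were removed. Both libraries were clustered together on 2000 variable genes, 30 principal components, 20 neighbours and Leiden resolution 1 (leidenalg 0.10.2), with the 10 genes and the gene lists left out. Clusters were named from 18 marker lists (mean log2 excess of at least 1, a lead of 0.75, 3 detected markers and 50 cells), thresholds set after the data were seen, and 10968 WT and 3927 EC-iCD45KO cells stayed unnamed. UMIs were summed per class and library and divided by all UMIs of the class to give CPM. No test was possible with 1 library per group, and no p-value was computed. Sums carry exact Poisson, shares exact Clopper-Pearson, differences of shares Newcombe and log2 ratios exact conditional binomial intervals, at 95% and for counting error only. The ratio and its interval were checked on simulated data. A gene counted as measured at a mean of at least 5 CPM and 50 UMIs over both libraries. TMM factors came from edgeR 4.0.16 (R 4.3.3), and the computations used Python 3.11.15, numpy 2.4.6 and scipy 1.17.1.

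All 10 genes are described, and every measured gene of the lists could be named, largest EC-like ratios first. The 10 genes nearest in pattern were named by their correlation with the mean of the 10. The members and the lists were chosen with earlier results of these data known. Promoter sequences come from RefSeq (GRCm38.p6). Alternatives were stricter and looser cell filters, no doublet removal, Leiden resolution 2, classes from marker UMIs without clustering, TMM, means of single-cell CPM, totals free of haemoglobin, mitochondrial and ribosomal protein genes, other minimums, folds and thinning depths, and equal cluster weights. Leaving out the barcodes found in both libraries and equal weights for SMC-like and macrophage-like clusters were added after the data were seen.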

Additional observations from a re-analysis of the deposited data

How the results depend on the processing

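No paired analysis was possible because a group was a single library. Of 49 alternative values for the results above, 24 moved by less than the counting interval and 25 moved further. For the log2 ratio of the summed factors in EC-like cells these were -0.0858 with no doublet removal, -0.0835 with TMM and -0.18 as a mean of single-cell CPM. In SMC-like cells they were -0.24 and -0.18 with the stricter and looser filter, -0.32 at Leiden resolution 2, -0.28 without clustering, -0.13 with TMM, -0.23 as a mean of single-cell CPM and -0.18 with equal cluster weights. In fibroblast-like cells they were -0.086 at resolution 2, -0.0521 without clustering, -0.0712 with TMM, -0.19 with totals free of mitochondrial, ribosomal protein and haemoglobin genes and -0.19 as a mean of single-cell CPM. In macrophage-like cells they were -0.0565 with the looser filter, -0.0525 with no doublet removal, -0.0552 at resolution 2, -0.00967 without clustering, -0.033 with TMM, -0.21 as a mean of single-cell CPM and -0.11 with equal cluster weights. The count of all genes past 1.5-fold in EC-like cells was 1352, with 3702 where no minimum was set and 558 at 2-fold, since these settings change which genes can count. The share difference for Fos turned from -0.75 points to 3.33 points with no doublet removal, with an interval above 0. The count of values of the 10 genes past the fold in the 4 classes stayed at 0 with TMM and with no doublet removal, and was 4 as means of single-cell CPM. Without the minimum, which all 10 passed, and at 2-fold it could not rise. Leaving out barcodes found in both libraries moved no value beyond its interval. For single genes in the 4 classes, 281 of 390 alternative values stayed within the counting interval and 109 moved. Of these 40 values 15 changed sign under at least 1 alternative, the largest of them Atf3 in SMC-like cells (0.26, down to -0.17), and Atf3 in macrophage-like cells kept its sign in 4 of 10. Where not given, the cause of a move was not tested. Depth limits Fosl2 and Nr4a1, which had the fewest UMIs in EC-like cells, and small classes such as Schwann-like cells of WT (124 cells) and plasma-like, erythroid-like and lymphatic EC-like cells of EC-iCD45KO (111, 183 and 211 cells).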

Other observations

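These factors were also measured in clusters that stayed unnamed. A cluster led by the cell-cycle genes Birc5, Cenpf and Ccna2 (896 and 448 cells) had a sum of the 10 factors of 4365 CPM in WT and 4309.7 CPM in EC-iCD45KO. A cluster of 2013 WT cells and no EC-iCD45KO cell, led by Glycam1, Umod and Kap, was at 4128 CPM, and a cluster of 675 EC-iCD45KO and 25 WT cells, led by genes that include Aqp2, Calb1 and Hsd11b2, known from kidney tubules, was at 4775 CPM in EC-iCD45KO. Chondrocyte-like cells (737 WT and 44 EC-iCD45KO) had Egr1 at 591 CPM in WT and 865 CPM in EC-iCD45KO.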
